A study of Mus musculus with 12 samples.

Results

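The proteins of the cytosolic ribosome were followed across haploid and diploid mouse epiblast stem cells (EpiSCs), pluripotent cells that resemble the epiblast after implantation. Members were all probe sets whose single gene symbol was that of a ribosomal protein of the large (Rpl) or small (Rps) subunit, chosen by symbol and not by any measured value. This gave 49 genes, with 105 of the 45037 probe sets of the array. Of these, 95 probe sets stood for 43 canonical genes, 22 of the large and 21 of the small subunit, and 10 stood for 6 paralogues, Rps4l, Rps27l, Rpl22l1, Rpl7l1, Rpl39l and Rpl3l. A further 110 probe sets named a ribosomal protein together with other genes and were not members, so Rpl5, Rpl10, Rpl24, Rpl36a, Rplp1 and Rps27a are not analysed here.

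Each of 4 groups held 3 biological replicates, 12 arrays in all. The groups were haploid EpiSC-1 and haploid EpiSC-2, both of the inbred strain 129Sv, and diploid EpiSC-1 and diploid EpiSC-2, both of the hybrid B6D2F1. The numbers 1 and 2 were taken as different lines within a ploidy. The culture medium of all 4 was N2B27, with Activin A and bFGF added. Strain divides the arrays in the same way as ploidy, so the part of each cannot be told apart in any difference given here.

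Each ribosome carries a single copy of nearly every one of these proteins on a core of ribosomal RNA, and growing cells devote much of their transcription to them. In most cases their mRNAs start with a run of pyrimidines (the TOP sequence), through which mTOR signalling adjusts their translation together. Canonical members are made in all tissues. Paralogues are copies that arose by duplication or retrotransposition: Rpl3l is known from heart and skeletal muscle, Rpl39l from the male germline, and Rps27l as a target of p53.

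Start regions of a few members are printed here because the values below set them against one another: 2 paralogues with the genes they derive from, and Rps6. Each line gives 45 bases before to 20 bases after the start of the gene, 5′ to 3′ on the gene's strand, from RefSeq's GRCm38.p6 annotation, and the capitals mark any of the 4 motifs described next, wherever it stands in the printed bases.
Rpl22l1 (chr3:28805463-28805527, plus strand): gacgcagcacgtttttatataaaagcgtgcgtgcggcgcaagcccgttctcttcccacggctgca
Rpl22 (chr4:152325681-152325745, plus strand): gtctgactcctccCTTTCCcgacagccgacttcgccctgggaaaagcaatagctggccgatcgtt
Rps27l (chr9:66946041-66946105, plus strand): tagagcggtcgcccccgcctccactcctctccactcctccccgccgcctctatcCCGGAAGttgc
Rps27 (chr3:90213629-90213693, minus strand): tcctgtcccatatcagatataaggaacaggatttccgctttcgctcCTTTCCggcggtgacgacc
Rps6 (chr4:86857348-86857412, minus strand): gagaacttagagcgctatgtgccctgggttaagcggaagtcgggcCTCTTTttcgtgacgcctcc

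Promoters of 250 bases before and 50 bases after the start were given for 43 of the 49 member genes, 51 promoters in all. The letters CCGGAAG on either strand, the core recognised by ETS factors such as GABP, stood in 43.2% of 44 canonical and 28.6% of 7 paralogue promoters, against 8.86% of all 32851 promoters. AAGATGGC, the core of the YY1 motif, stood on either strand in 6.82% of canonical and 14.3% of paralogue promoters, against 2.75% of all. The pyrimidine runs CTCTTT and CTTTCC were searched on the gene's strand alone, in 30 bases centred on the start. At least 1 of them stood in 18.2% of canonical and 14.3% of paralogue promoters, against 2.42% of all. The CTTTCC printed for Rpl22 lies before these 30 bases and was not counted. Other pyrimidine runs, such as that just after the start of Rpl22l1, were neither searched for nor marked. CTTTCC can share letters with CTTCCGG, the other strand of the first motif. These matches describe letters in a window and no binding.

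Signals were the authors' MAS5 values, a linear brightness scaled to the same trimmed mean on every array, so signals of different probe sets are not set against each other as levels. Probe sets with a mean log2 signal at or above the median of the array, a signal of 62.6, were tested. This was 19837 probe sets in all and 96 of the 105 members (88 canonical, 8 paralogue). A call means a Benjamini-Hochberg adjusted p under 0.05 over all tested probe sets in limma. Haploid was set against diploid with the 4 line means as the units. Replicates of a line correlated at 0.987 to 0.990 and arrays of different lines at 0.871 to 0.957. No array stood apart from the others of its line. Actin control probe sets read more strongly at the 3′ than at the 5′ end, by a ratio of 1.34 to 1.42 on haploid arrays against 1.46 to 1.68 on diploid ones. For Gapdh this ratio overlapped (0.836 to 0.870 on haploid against 0.821 to 0.938 on diploid arrays). The 12 EpiSC markers had means above the filter in every line, though Otx2 and Fgf5 were at 73.8 and 83.3 in haploid EpiSC-1. Of these markers 2 were higher and 6 lower in every haploid array than in any diploid array. Their summed signal was 51200 to 52310 for haploid EpiSC-1 and 68340 to 69840 for haploid EpiSC-2, against 97150 to 100200 for diploid EpiSC-1 and 83010 to 85260 for diploid EpiSC-2. Of 15 fibroblast feeder markers, 13 were higher in every haploid array than in any diploid array and 0 were lower. Summed over the markers, the signal was 34970 to 35480 for haploid EpiSC-1 and 37930 to 38610 for haploid EpiSC-2, against 1777 to 1968 for diploid EpiSC-1 and 6846 to 6864 for diploid EpiSC-2. In diploid EpiSC-1 9 of the 15 lay under the filter, in diploid EpiSC-2 6, and in the haploid lines 0. Whether these RNA quality and marker values had a part in the differences below was not tested.

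The first comparison asked how haploid cells differ from diploid cells in their ribosomal protein transcripts. Of all tested probe sets 3.03% were called, 2.01% higher and 1.02% lower in haploid cells. Of the 88 canonical probe sets 0 were called higher and 1 lower (Rps9), and of the 8 paralogue probe sets 1 was called higher (Rps4l) and 0 lower. With 2 lines of each ploidy, a difference that missed the threshold does not show that the ploidies were alike. The median log2 difference was -0.09 over canonical probe sets against 0.03 over all tested probe sets, and Rps4l and 1 probe set of Rps9 lay far from the rest of the family.

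Rps4l is a copy of the X-linked gene Rps4x, which encodes a protein of the small subunit. It lies on chromosome 6 and is listed as a transcribed pseudogene in the RefSeq table, the only member that is not listed as protein coding. Its probe set (1452730_at) read 7719, 7083 and 7461 in haploid EpiSC-1 and 8315, 8533 and 9276 in haploid EpiSC-2. It read 37.7, 21.7 and 47.8 in diploid EpiSC-1 and 16.4, 46.8 and 21.4 in diploid EpiSC-2. Every haploid array was bright and all 6 diploid arrays lay under the filter level of 62.6, where signals have no reliable order. The log2 difference was 8.10 ± 0.28 (SE, 2 lines of each ploidy, adjusted p = 4.30e-04). Because the diploid signals lie in the background, the size is uncertain: with 16 added to every signal it was 7.44, and set against the filter level itself the haploid mean was 128.4-fold higher. The call held in 25 of 25 alternatives, with adjusted p values of 1.14e-06 to 0.0231.

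The lines within a ploidy did not part on Rps4l beyond their spread (haploid EpiSC-2 minus haploid EpiSC-1 0.23, adjusted p = 0.566, and diploid EpiSC-2 minus diploid EpiSC-1 -0.42, adjusted p = 0.277). Without the second replicate of diploid EpiSC-2 the diploid difference was -0.85 (adjusted p = 0.00767), between signals that all lay under the filter. Feeder markers were also high in haploid arrays, with the sums given above, and their part in the Rps4l difference was not tested. In bulk samples such as these, a change in the share of cells that express a gene and a change in the RNA per cell cannot be told apart.

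Rps4x itself (1416276_a_at) read 26536 to 29617 in haploid EpiSC-1 and 29018 to 29794 in haploid EpiSC-2, and its diploid arrays read 25985 to 28482 (EpiSC-1) and 24487 to 30300 (EpiSC-2). The groups overlapped and the difference was 0.07 ± 0.12 on the log2 scale (adjusted p = 0.778). A second Rps4x probe set lay at 2.95 to 10.1 over all arrays, under the filter. Rpl39, the other X-linked canonical member, was at -0.35 (adjusted p = 0.545).

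Rps9, a protein of the small subunit that binds early in its assembly, gave different answers on its 3 probe sets. On 1434624_x_at the haploid arrays read 387, 579 and 424 in EpiSC-1 and 362, 408 and 540 in EpiSC-2. The diploid arrays read 13188, 14244 and 12932 in EpiSC-1 and 17299, 18518 and 15688 in EpiSC-2. The ploidies were far apart, and this probe set fell by 5.10 ± 0.21 on the log2 scale in haploid cells (adjusted p = 6.66e-04), a call kept in 23 of 23 alternatives in which it was tested. The brightest probe set of the gene by mean signal, 1433689_s_at, read 14354 to 15254 in haploid EpiSC-1 and 16321 to 16878 in haploid EpiSC-2. It read 16148 to 17497 in diploid EpiSC-1 and 16952 to 19162 in diploid EpiSC-2. Here the groups overlapped, and the difference was -0.16 (adjusted p = 0.582). The third, 1426958_at, was at -0.19 (adjusted p = 0.840). The drop on 1 probe set was thus not measured on the other 2, and a call for the gene as a whole rests on which probe set is read: with the brightest probe set of each gene, 0 canonical genes were called lower. The ending _x_at marks probe sets that Affymetrix flagged as able to bind other transcripts.

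**Figure D1:**
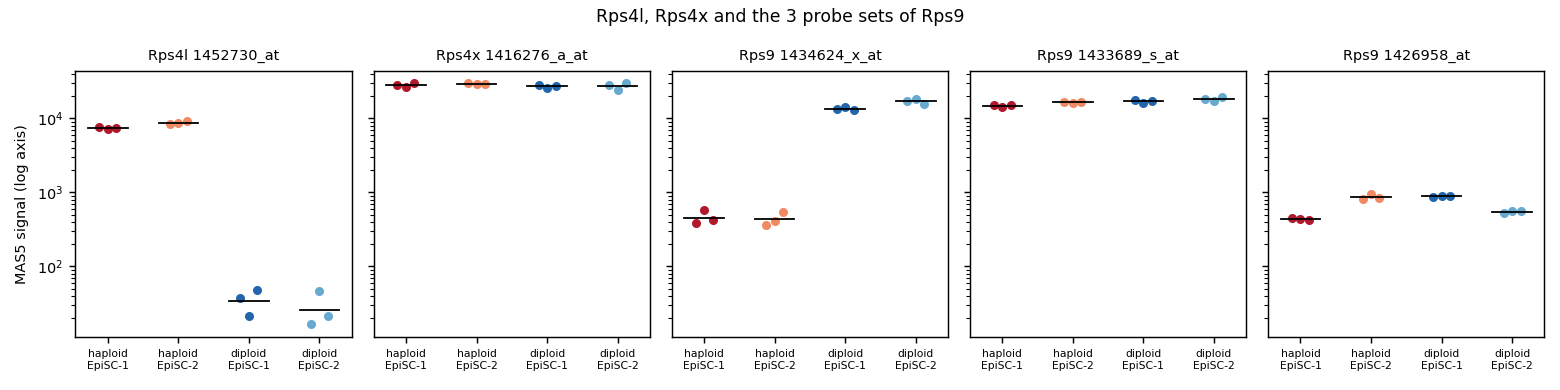
MAS5 signal (log axis) of Rps4l, Rps4x and the 3 probe sets of Rps9 on each of the 12 arrays, by line; points are arrays and bars are geometric means of 3 arrays. Rps4l sits at 7083 to 9276 in haploid arrays and 16.4 to 47.8 in diploid arrays, Rps9 1434624_x_at at 362 to 579 in haploid arrays and 12932 to 18518 in diploid arrays, and Rps4x and Rps9 1433689_s_at overlap between the ploidies.

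Apart from Rps4l, the paralogues with signal were lower in haploid arrays or did not part the ploidies, and none of these passed the test. Rpl22l1, the copy of Rpl22 that can stand in for it in the large subunit, read 4820, 5189 and 5290 in haploid EpiSC-1 and 8289, 7621 and 6576 in haploid EpiSC-2. It read 11941, 11279 and 12667 in diploid EpiSC-1 and 15128, 14050 and 15116 in diploid EpiSC-2. Each line had its own level, every haploid array lay below every diploid array, and the log2 difference was -1.11 ± 0.23 (adjusted p = 0.0618). It was called with the lines as a random block over 12 arrays (adjusted p = 0.00109), with a replicate block in that fit (adjusted p = 0.00313), and without the first replicate of haploid EpiSC-2 (adjusted p = 0.0435). The random-block fit, which treats the arrays of a line as partly independent samples of a ploidy, called mostly unchanged probe sets in simulated data, so its p values here and below are too small to be read as calls of their own. Within the ploidies, Rpl22l1 was higher in EpiSC-2 than in EpiSC-1, by 0.55 between the haploid lines (adjusted p = 1.68e-05) and by 0.30 between the diploid lines (adjusted p = 0.00232, and 0.227 with quantile normalization).

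Rpl22, whose product is dispensable for the ribosome's core function in mice, was measured by 3 tested probe sets. The brightest (1453118_s_at) was at 0.08 (adjusted p = 0.755), 1416603_at was at -0.18 (adjusted p = 0.521) and the dimmest (1448398_s_at) at -0.63 (adjusted p = 0.245). On the dimmest, haploid arrays read 1280 to 1604 and diploid arrays 1657 to 2781, without overlap. The ratio of Rpl22l1 to Rpl22 was not formed, since signals of different probe sets have no common scale.

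Rps27l, the p53-regulated copy of the small-subunit gene Rps27, showed the same order of lines on all 3 of its probe sets. On 1423254_x_at it read 9958, 10949 and 10833 in haploid EpiSC-1 and 11777, 12468 and 11788 in haploid EpiSC-2. It read 17718, 16343 and 17738 in diploid EpiSC-1 and 19933, 18985 and 20196 in diploid EpiSC-2. No haploid array reached the lowest diploid array. The log2 difference was -0.71 ± 0.15 (adjusted p = 0.0667, and 0.0423 with quantile normalization). On the other 2 probe sets haploid arrays again lay below diploid arrays, with differences of -0.60 (adjusted p = 0.0894) and -0.53 (adjusted p = 0.114). All 3 were called with the random line block (adjusted p = 5.64e-04 to 0.00269). The probe sets of 1 gene are not independent of each other. Rps27 (1460699_at) was at -0.31 (adjusted p = 0.582), with overlapping arrays.

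Rpl7l1, a paralogue of Rpl7 that works in ribosome assembly, did not part the ploidies, with differences of -0.25, 0.15 and -0.26 on its 3 probe sets (adjusted p = 0.599, 0.856 and 0.677). It parted the haploid lines instead. On 1452049_at it read 3686, 3510 and 3760 in haploid EpiSC-2 and 2007, 2044 and 1940 in haploid EpiSC-1, and it was higher in haploid EpiSC-2 by 0.87 ± 0.04 (adjusted p = 1.31e-09). The diploid lines lay at 3081 to 3190 in EpiSC-2 and 3243 to 3441 in EpiSC-1, between the haploid lines, and differed by -0.10 (adjusted p = 0.0649). The other 2 probe sets were higher in haploid EpiSC-2 by 0.44 and 0.93 (adjusted p = 1.22e-04 and 3.30e-04). Rpl39l lay between 1.95 and 21.5 and Rpl3l between 1.19 and 21.2 over all 12 arrays, under the filter in every group.

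**Figure D2:**
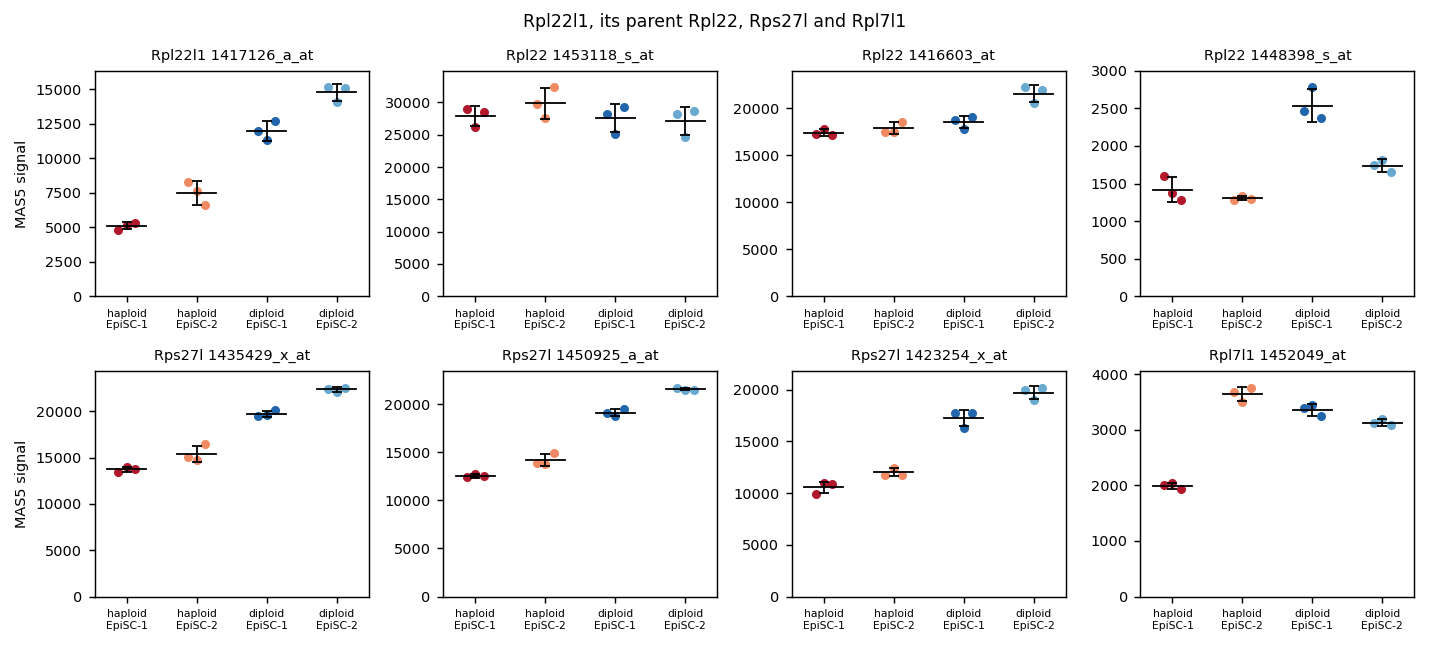
MAS5 signal of Rpl22l1, the 3 probe sets of Rpl22, the 3 of Rps27l and 1 of Rpl7l1 on each array; points are arrays, bars the mean and SD of 3 arrays. Rpl22l1 and all 3 Rps27l probe sets lie lower in every haploid array than in any diploid array, while Rpl7l1 is lowest in haploid EpiSC-1, at 1940 to 2044.

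Among all 96 tested members, 2 had every haploid array above every diploid array, Rps4l and 1 probe set of Rps20, and 12 had every haploid array below, among them 8 canonical probe sets of 7 genes. These are 2.08% and 12.5% of the members, and over all tested probe sets the shares were 16.3% above and 12.5% below. Rps20 (1450417_a_at) read 188 to 248 on haploid arrays and 155 to 186 on diploid ones, a difference of 0.26 (adjusted p = 0.656).

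Canonical probe sets of high signal moved little between the ploidies. Of the 88 canonical probe sets, 72 had a difference below 0 (81.8%, against 47.4% of all tested probe sets). With quantile normalization 55 lay below 0, and with arrays centred on their medians, which moved every ploidy difference by -0.12, 84 did. The 64 canonical probe sets with a mean signal of 10000 and over lay between -0.39 and 0.09, with a median of -0.08, and 0 were called. The 348 other probe sets of that brightness had a median of -0.13 and 2 were called. The 23 canonical probe sets with a mean signal under 5000 had a median of -0.44, against 0.05 for the 18570 others in that range. Array maxima lay between 31676 and 37927, and whether differences of bright probe sets are compressed near the top of the scale was not tested. Taking the brightest tested probe set of each of 42 canonical genes, the median was -0.10 over 22 genes of the large subunit and -0.07 over 20 genes of the small subunit.

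The lowest canonical genes by the brightest probe set were Rps25 and Rps6 of the small and Rpl14, Rpl27a and Rpl37 of the large subunit. Rps25, which is needed for initiation at some viral internal entry sites, read 1610, 1614 and 1388 in haploid EpiSC-1 and 1954, 2082 and 2079 in haploid EpiSC-2. It read 3389, 3182 and 3373 in diploid EpiSC-1 and 4837, 4425 and 4482 in diploid EpiSC-2. Both haploid lines lay below both diploid lines, with a log2 difference of -1.14 ± 0.26 (adjusted p = 0.0745, or 4.70e-04 in the random-block fit).

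Rpl14 read 814, 843 and 806 in haploid EpiSC-1 and 1297, 1323 and 1270 in haploid EpiSC-2. Its diploid arrays read 2069, 2132 and 2168 (EpiSC-1) and 2207, 2075 and 2147 (EpiSC-2). The diploid lines shared a level and both haploid lines lay below it, at -1.05 ± 0.28 (adjusted p = 0.109, and 4.96e-04 with the random line block). Rps6, the protein phosphorylated by S6 kinases downstream of mTOR, read 583, 604 and 559 in haploid EpiSC-1 and 753, 770 and 732 in haploid EpiSC-2. It read 1203, 1178 and 1168 in diploid EpiSC-1 and 1279, 1404 and 1335 in diploid EpiSC-2. Its arrays did not overlap either, at -0.93 ± 0.25 (adjusted p = 0.116, and 9.39e-04 with the random line block). A second Rps6 probe set, under the filter, read 15.3 to 26.6 on haploid arrays and 40.8 to 65.8 on diploid ones. With the random line block, which called 9.37% of all tested probe sets higher and 6.54% lower in haploid cells (15.9% in all), 0 of 88 canonical probe sets were called higher and 6 were called lower: those of Rps25, Rpl14, Rps6, Rps9 (1434624_x_at), Rpl22 (1448398_s_at) and Rpl27 (1453096_x_at).

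At the other end, Rps2 (0.09), Rpsa (0.09), Rpl22 (0.08), Rpl41 (0.08) and Rps4x (0.07) were the highest canonical genes, with adjusted p values of 0.708 to 0.778, and all 5 lay below 0 with centred arrays. Among genes with roles of their own, Rplp0, the base of the acidic stalk that recruits elongation factors, was at -0.25 (adjusted p = 0.299) and its partner Rplp2 at 0.03 (adjusted p = 0.904). Rpl11, which with Rpl5 and the 5S RNA can bind Mdm2, was at -0.09 (adjusted p = 0.749). Rps19, mutated in Diamond-Blackfan anaemia, was at -0.15 (adjusted p = 0.578), and Rpl38, which in mouse embryos affects the translation of Hox mRNAs, at -0.05 (adjusted p = 0.852).

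**Figure D3:**
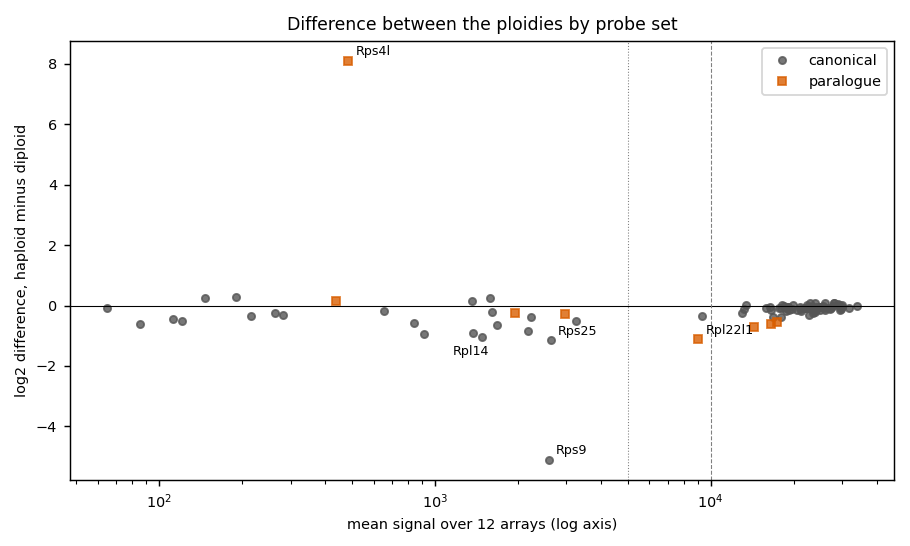
Log2 difference (haploid minus diploid, line means) of the 96 tested member probe sets against their mean signal over 12 arrays (log axis); circles are canonical and squares paralogue probe sets, with lines at 5000 and 10000. Canonical probe sets of 10000 and over lie between -0.39 and 0.09, and Rps4l at 8.10 and Rps9 1434624_x_at at -5.10 lie far from the others.

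The remaining comparisons were between the lines of a ploidy, EpiSC-2 over EpiSC-1. Here the 3 replicates of each line are the units, so p values rest on replicates of the same line and say nothing of other lines of that ploidy. About 1 in 2 tested probe sets was called in each: 49.5% between the haploid lines (22.8% higher, 26.7% lower) and 53.3% between the diploid lines (22.4% higher, 30.9% lower). In haploid EpiSC-2, 23 of 88 canonical probe sets (26.1%), of 14 genes, exceeded haploid EpiSC-1 and 0 were lower, along with 7 of 8 paralogue probe sets. The canonical median was 0.07, against -0.04 for all tested probe sets. In diploid EpiSC-2, 50 of 88 (56.8%), of 26 genes, were higher than in diploid EpiSC-1 and 8 (9.09%), of 7 genes, were lower, along with 4 paralogue probe sets higher. The canonical median was 0.15, against -0.06 for all.

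These counts depended on how arrays were scaled. With arrays centred on their medians, which moved every difference between the haploid lines by 0.16, 72 canonical probe sets were higher in haploid EpiSC-2 and 0 lower, and the higher share of all calls was 66.9%, against 46.0% as deposited. With quantile normalization, the haploid count was 19 higher and 2 lower, and the diploid count 16 higher and 15 lower, with a diploid median of 0.01. The 64 bright canonical probe sets carried most of this. As deposited, 45 of them (70.3%) were higher in diploid EpiSC-2 and 0 lower, by a median of 0.17, and the 348 other probe sets of that brightness had the same median of 0.17 with 59.5% higher. With quantile normalization 12 were higher and 7 lower, with a median of 0.01. The highest signal on an array lay between 31676 and 37927, and the mean signal of the brightest canonical probe set was 34010. With centred arrays 34 were higher and 0 lower, with a median of 0.15, and of all 88 canonical probe sets 38 were higher and 8 lower. The count of bright members called higher in diploid EpiSC-2 thus stood beside a like median in other bright probe sets, stayed above that of lower calls with centred arrays, and was largely lost with quantile normalization. That method gives probe sets of the same rank the same value on every array, so it removes a shift shared by the brightest probe sets. The loss therefore cannot show whether such a shift was present. Among the 8 paralogue probe sets, quantile normalization gave 4 higher and 0 lower between the haploid lines, and 0 higher and 1 lower between the diploid lines. All 3 Rps27l probe sets, called higher in EpiSC-2 of both ploidies as deposited, lost these calls with quantile normalization and kept them with centred arrays.

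**Figure D4:**
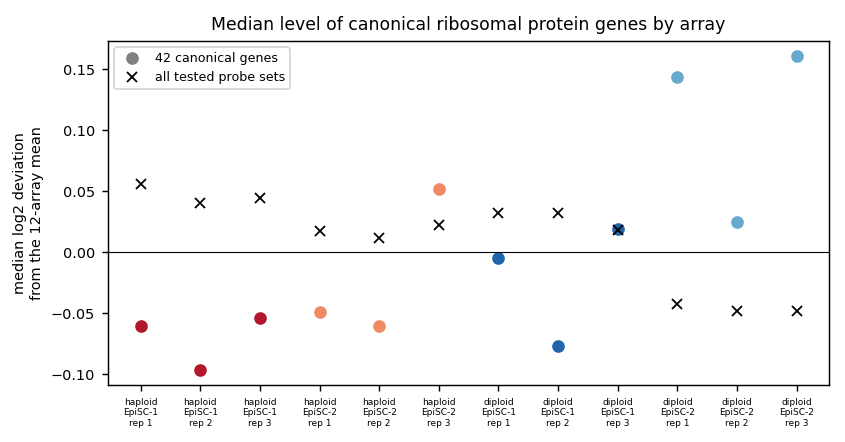
Median log2 deviation from the 12-array mean of 42 canonical genes (coloured circles, brightest probe set of each gene) and of all tested probe sets (crosses), for each array. The canonical median runs from -0.10 to 0.05 in haploid arrays, from -0.08 to 0.02 in diploid EpiSC-1 and from 0.02 to 0.16 in diploid EpiSC-2.

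Larger differences between lines were carried by dimmer probe sets. Of 23 canonical probe sets with a mean signal under 5000, 14 (60.9%) were higher in haploid EpiSC-2 and 0 lower, with a median of 0.54, while 21.2% of the 18570 other tested probe sets in that range were higher. Between the diploid lines 4 of the 23 were higher (17.4%) and 8 lower (34.8%) in EpiSC-2. These lay near the shares of the other tested probe sets in that range, 20.2% higher and 32% lower. The 23 include Rps9 1434624_x_at, with a mean signal of 2594 but 12932 to 18518 on diploid arrays. The counts of the 23 barely moved with scaling, at 16 higher between the haploid lines and 4 higher and 8 lower between the diploid lines with quantile normalization. Of the 23, 7 were both higher in haploid EpiSC-2 and lower in diploid EpiSC-2, the pattern of 10.3% of all tested probe sets.

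Rpl12, a large-subunit protein at the base of the stalk, is an example. It read 2351, 2583 and 2535 in haploid EpiSC-2 and 1557, 1605 and 1403 in haploid EpiSC-1, a difference of 0.71 ± 0.07 (adjusted p = 6.13e-07). It read 2029, 2104 and 2004 in diploid EpiSC-2 and 3211, 3457 and 2943 in diploid EpiSC-1, a difference of -0.64 (adjusted p = 1.33e-06). Haploid EpiSC-2 lay nearer to the diploid lines than haploid EpiSC-1 did. Rps25, Rpl14 and Rps6, the lowest genes between the ploidies, were also higher in EpiSC-2 than in EpiSC-1 of the haploid cells, by 0.41, 0.66 and 0.37 (adjusted p = 6.39e-05, 5.61e-08 and 1.01e-04).

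By the brightest probe set of each gene, the highest canonical genes in diploid EpiSC-2 over diploid EpiSC-1 were Rpl27a, Rpl37, Rps25 (0.47, adjusted p = 1.68e-05), Rps7 (0.29, adjusted p = 3.38e-05) and Rps18 (0.29, adjusted p = 1.17e-05). Rpl12 was the lowest, and the next 4, Rps2, Rplp0, Rpl22 and Rpl41, lay between -0.06 and -0.01 and were not called (adjusted p = 0.570 to 0.946). Over haploid EpiSC-1, the highest in haploid EpiSC-2 were Rpl12, Rpl14, Rps25, Rps6 and Rps9 (1433689_s_at at 0.15, adjusted p = 0.0135, 0.192 with quantile normalization and 0.0621 without haploid EpiSC-1 replicate 2). The lowest there, Rpl27a, Rps27, Rps29, Rpl37 and Rpl13a, lay between -0.08 and -0.04, with no call (adjusted p = 0.389 to 0.698), and all 5 were above 0 with centred arrays.

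Rpl27a and Rpl37 set diploid EpiSC-2 apart from the 3 other lines. Rpl27a (1437729_at) read 1901, 1637 and 1533 in diploid EpiSC-2 and 626, 581 and 690 in diploid EpiSC-1, a difference of 1.42 ± 0.10 (adjusted p = 4.14e-08), while the haploid arrays lay at 580 to 771. Rpl37 read 5097, 5398 and 4379 in diploid EpiSC-2 and 2894, 3447 and 2854 in diploid EpiSC-1, a difference of 0.69 (adjusted p = 1.68e-05), while the haploid arrays lay at 2501 to 2967. Neither differed between the haploid lines beyond their spread (-0.08, adjusted p = 0.524, and -0.05, adjusted p = 0.698).

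Probe sets of the same gene often gave different answers. Rpl41, the shortest protein of the large subunit, is 1 of 10 canonical genes with both a probe set of 10000 and over and one under 5000. Its dim probe sets were higher in haploid EpiSC-2 by 1.17 and 1.32 and lower in diploid EpiSC-2, at -0.37 and -0.75, all 4 called. On 1454639_x_at it read 2669, 2728 and 2354 in haploid EpiSC-2 and 1084, 1005 and 1017 in haploid EpiSC-1, and 2343, 2139 and 2263 in diploid EpiSC-2 and 3527, 3900 and 3911 in diploid EpiSC-1. Its bright probe sets differed by 0.07 and 0.21 between the haploid and by -0.01 and 0.06 between the diploid lines. Ribosomal protein genes have many near-identical processed copies in the mouse genome, so the copy that a probe set reads is uncertain.

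Calls in opposite directions on 1 gene occurred between the diploid lines in 4 genes, Rpl22, Rpl35, Rps10 and Rps18. Rpl35 was higher in diploid EpiSC-2 on 5 bright probe sets, by 0.24 to 0.41, and lower on the dim 1454833_at, at -0.70. Rps10 was higher on 4 probe sets and lower on 1436384_at (-0.51). Rps18 was higher on 2 and lower on 1421837_at (-0.94, adjusted p = 0.0213), which read 44.7, 44.5 and 56.3 in diploid EpiSC-2 and 90.3, 76.7 and 115 in diploid EpiSC-1, near the filter level. Rpl22 was higher on 1416603_at (0.22) and lower on 1448398_s_at (-0.54). With quantile normalization the higher calls were lost on Rpl22 1416603_at, on 1 of 5 probe sets of Rpl35, on 3 of 4 of Rps10 and on 1 of 2 of Rps18, and the lower calls were kept. With centred arrays 2 of the 4 higher calls of Rps10 were lost, and the same 2 (1434854_a_at and 1438723_a_at) were lost without diploid EpiSC-1 replicate 2 and without diploid EpiSC-2 replicate 1 or 3. The lower call of Rps18 was lost without diploid EpiSC-2 replicate 1 (adjusted p = 0.0582) or 2 (adjusted p = 0.0574).

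**Figure D5:**
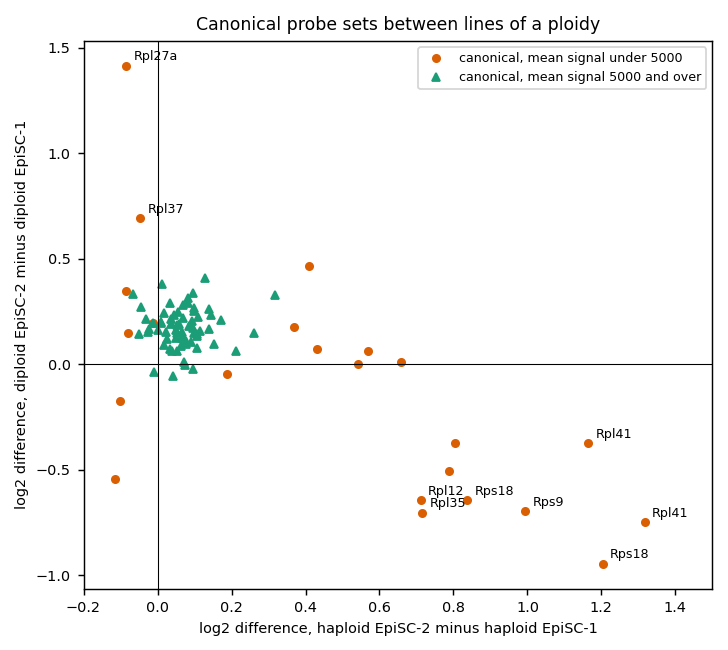
Log2 difference between the diploid lines (vertical axis) against that between the haploid lines (horizontal axis) for the 88 tested canonical probe sets; circles have a mean signal under 5000 and triangles 5000 and over. Triangles cluster near the origin, slightly above 0 on the vertical axis, and many circles spread to the lower right, with Rpl27a alone at 1.42 on the vertical axis.

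Genes that act beside the ribosomal proteins were counted for comparison, by the brightest tested probe set of each gene. Between the ploidies 0 of 76 mitochondrial ribosomal protein genes, 0 of 29 ribosome assembly factors, 0 of 21 translation factors and other TOP mRNAs and 0 of 22 subunits and regulators of RNA polymerases I and III were called, with medians of -0.30, -0.35, -0.14 and -0.34. With the random line block, whose p values are too small to be read as calls of their own, 22 mitochondrial ribosomal protein genes and 9 assembly factors passed as lower. In these 2 lists 1 and 0 passed as higher. Of the translation factors and other TOP mRNAs 1 was lower and 0 higher in that fit, and of the polymerase genes and regulators 3 were lower and 2 higher. Over all tested probe sets 6.54% were lower and 9.37% higher. Between the haploid lines, where 22.8% of all tested probe sets were higher and 26.7% lower, 28 of 29 assembly factors were higher in haploid EpiSC-2 and 0 lower, by a median of 0.52 that was 0.51 with quantile normalization and 0.67 with centred arrays. These include Dkc1, the pseudouridine synthase (0.99), and the snoRNP proteins Nop56 (0.65) and Nop58 (0.65). Of the mitochondrial ribosomal protein genes 55 of 76 were higher and 6 lower, and of the translation factors and other TOP mRNAs 8 of 21 were higher and 2 lower. Of the polymerase genes and regulators 14 of 22 were higher and 1 lower. Among the higher were Myc, an activator of ribosome production, by 0.62 (adjusted p = 2.82e-05), and Mycn by 0.57 (adjusted p = 4.95e-07). Of the canonical ribosomal protein genes read in the same way, 7 of 42 were higher and 0 lower as deposited, 5 higher and 1 lower with quantile normalization, and 32 higher and 0 lower with centred arrays. Between the diploid lines, where 22.4% of all tested probe sets were higher and 30.9% lower, 6 assembly factors were higher and 17 lower in EpiSC-2. Of the polymerase genes and regulators 2 were higher and 11 lower. Myc was at 0.11 (adjusted p = 0.304) and Mycn at -0.72 (adjusted p = 3.38e-08). Of the mitochondrial ribosomal protein genes 15 were higher and 30 lower there. Of the canonical genes 25 were higher and 1 lower there, 7 and 7 with quantile normalization, and 17 and 1 with centred arrays. The translation factors and other TOP mRNAs had 9 higher and 2 lower as deposited, 1 and 10 with quantile normalization, and 6 and 2 with centred arrays.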

How the data were processed

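Intensities of 12 Affymetrix mouse 430 2.0 arrays were deposited by the authors as linear MAS5 signals, per the submitters' processing notes, which give no version. The trimmed mean of every array was 500. Of 45101 probe sets, 64 controls were dropped, and 34945 had 1 gene symbol, 932 several and 9160 none in the platform annotation. All 49 member symbols equal those of the RefSeq table (GRCm38.p6) through the Entrez identifier. Here log2 signals were used without further normalization. Probe sets with 1 symbol and a mean log2 signal at or above the median (5.97) were tested, 19837 in all. The ploidies were tested on 4 line means (2 against 2) in limma 3.58.1 (R 4.3.3), with an intensity trend. Differences within a ploidy came from limma contrasts of 4 group means over 12 arrays. Tests were two-sided. Adjustment was over all tested probe sets. The line mean is the unit because arrays of a line are not separate samples of a ploidy. A fit with lines as a random block (statmod 1.5.0, correlation 0.769) was an alternative. The scripts were tested on simulated data, where most calls of the random-block fit, but few of the line-mean fit, were of unchanged probe sets.

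Members, lists, tests and named genes were chosen with earlier results of these data known. Named genes were all paralogues, every member called between the ploidies, the 5 highest and 5 lowest canonical genes of each comparison by the brightest probe set, genes with calls in opposite directions, the X-linked members and a short list of genes with known roles. Rps20, Rps3, Rpl27, Rpl37a and the genes of the comparison lists were chosen after their values were seen. Replicate numbers were not used to pair arrays in the main fits. Correlations of deviations between same-numbered arrays were -0.035 to 0.081 over 18 pairs. The canonical median was nevertheless lowest in replicate 2 and highest in replicate 3 of every line. In diploid EpiSC-2 it was 0.02 and 0.16 on these arrays. No detection calls or scan dates were used. Precision is limited by the number of arrays. The alternatives were a random line block, a replicate block, quantile normalization, arrays centred on their medians, a pseudocount of 16, no filter, a filter at the 75th percentile, the brightest probe set per gene, probe sets without the endings _s_at, _x_at and _a_at, leaving out each array, and leaving out each line.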

Additional observations from a re-analysis of the deposited data

Results flagged for a closer look

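In 7 member probe sets the haploid lines lay on opposite sides of the diploid mean, with a called difference between them of at least 0.5 on the log2 scale. The 5 canonical ones were Rps18 1421837_at (1.20 higher in haploid EpiSC-2, adjusted p = 0.00560), Rps9 1426958_at (0.99), Rps10 1436384_at (0.79), Rps3 1455600_at (0.57) and Rpl37a 1416218_x_at (0.54). The other 2 were Rpl7l1 1439780_at (0.93) and Rpl7l1 1452049_at (0.87). Against the diploid mean, Rps9 1426958_at was at 0.31 in haploid EpiSC-2 and -0.68 in haploid EpiSC-1, and Rpl7l1 1439780_at at 0.62 in haploid EpiSC-2 and -0.31 in haploid EpiSC-1. All 5 canonical probe sets had mean signals under 5000, and each of these genes also had a bright probe set on which the haploid lines differed by at most 0.15.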

How the results depend on the processing

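Counts of canonical and of all called probe sets, and the values of members named by rule, were recomputed under each alternative that could test them. Counts of paralogues, of signal classes and of the comparison lists were recomputed under the scalings alone, and values of single genes that are no members, and of Rps20, Rps3, Rpl27 and Rpl37a, were not. For genes with several probe sets, not every probe set was recomputed in every comparison. For single probe sets, 1794 of 1909 values kept their direction and their side of the threshold, 23 lost a call, 46 gained one and 46 changed sign. The calls of Rps4l and Rps9 1434624_x_at between the ploidies were kept in all alternatives that tested them. Canonical probe sets called lower in haploid cells numbered 1, and 6 with the random line block, 5 with a replicate block in that fit, 0 with the brightest probe set per gene and 0 without _s_at, _x_at and _a_at probe sets. All calls between the ploidies numbered 601, and 3157 with the random line block, 2692 with the replicate block, 91 with the 75th percentile filter, 325 with the brightest probe set, 18 without haploid EpiSC-1, 96 without haploid EpiSC-2, 390 without diploid EpiSC-1 and 568 to 651 without single arrays. Between the haploid lines, canonical probe sets called higher numbered 23, and 72 with centred arrays, 7 with the brightest probe set, 11 without the 3 endings and 17 to 26 without single arrays. Those called lower numbered 2 with quantile normalization and 0 to 1 without single arrays, the 1 arising without haploid EpiSC-2 replicate 3. All calls were 6441 with the 75th percentile filter and 6288 with the brightest probe set. Between the diploid lines, those called higher numbered 50, and 16 with quantile normalization, 25 with the brightest probe set, 6 without the 3 endings and 40 to 59 without single arrays. Those called lower numbered 8, and 15 with quantile normalization, 5 with the 75th percentile filter, 1 with the brightest probe set and 7 to 9 without single arrays. All calls were 6864 with the 75th percentile filter and 6196 with the brightest probe set. Fewer probe sets are tested under the filter, brightest and ending alternatives. For the other changes the cause was not tested. A replicate block in the fits between lines raised the canonical probe sets called higher between the haploid lines from 23 to 34, with 0 lower. No count moved by over 1.5 times. The block added the diploid calls of Rps10 1416719_a_at (0.13), Rps18 1448739_x_at (0.11), Rps9 1433689_s_at (0.10) and Rps9 1434624_x_at (0.35).

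Of the 46 sign changes, 1 came with a call, that of Rpl41 1422623_x_at between the diploid lines. With quantile normalization, between the haploid lines Rps27 was at 0.051, Rps29 at 0 and Rps9 1434624_x_at at 0.011, and between the diploid lines Rps27l 1423254_x_at was at -0.00088, Rpl41 1422623_x_at at -0.134 (adjusted p = 0.0297), Rps10 at -0.060, -0.0037 and -0.0013 on 3 probe sets, Rps18 1448739_x_at at -0.063 and Rps9 1433689_s_at at -0.085. With centred arrays, between the ploidies Rps4x was at -0.049, Rpl41 at -0.042, Rpl22 at -0.041, Rpsa at -0.028, Rps2 at -0.026 and Rplp2 at -0.086. Between the haploid lines Rpl27a was at 0.074, Rps27 at 0.078, Rps29 at 0.108, Rpl37 at 0.112, Rpl13a at 0.114 and Rps9 1434624_x_at at 0.074, and between the diploid lines Rpl7l1 1426386_at was at -0.0042. Without single arrays, between the diploid lines Rpl7l1 1426386_at was at -0.054 to 0.090, Rpl41 1455578_x_at at -0.041 to 0.045, Rpl22 1453118_s_at at -0.086 to 0.047, Rps2 at -0.164 to 0.034 and Rplp0 at -0.090 to 0.039. Between the haploid lines Rps9 1434624_x_at was at -0.248 to 0.087 and Rpl27a at -0.137 to 0.019, and between the ploidies Rplp2 was at -0.0084 to 0.067. Without the line haploid EpiSC-1, Rpl7l1 1452049_at was at 0.171 and Rps9 1426958_at at 0.311. Without haploid EpiSC-2, Rpl7l1 1439780_at was at -0.314. Without diploid EpiSC-1, Rpsa was at -0.019 and Rps9 1426958_at at 0.161. Without diploid EpiSC-2, Rpl7l1 1439780_at was at -0.0066, Rpl27a at 0.128 and Rpl11 at 0.0027.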
